A study of Mus musculus with 17 samples.

Results

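Matricellular proteins are secreted into the extracellular matrix, where they signal to cells and organise the matrix more than they carry load. The expression of 10 genes of this kind was followed in the left ventricular apex of the mouse, chosen by gene symbol: Postn, Ccn1, Ccn2, Ccn4, Ccn5, Thbs1, Thbs4, Tnc, Sparc and Spp1. All 10 were listed among the 21798 genes of the deposited table and all 10 passed the filter on low values (CPM, the reads of a gene scaled to the total of its library, of at least 0.5 in at least 3 libraries), which 16218 genes passed. The libraries came from male C57Bl6/J mice that entered the study at 7 to 8 weeks of age and were killed 3 weeks after surgery, 1 library per mouse. Transverse aortic constriction (TAC), a ligature around the aortic arch that loads the left ventricle with pressure, was compared with Sham surgery without ligation. Within each surgery mice were randomly given 29P or saline vehicle (Veh). 29P is an orally available prodrug that mimics the integrin-binding RGD sequence and is specific for the integrin αvβ3, and 6 gavages of 50 μg/kg, or of a matched volume of saline, began 1 week after surgery. Veh mice gave 5 Sham and 3 TAC libraries, and 29P mice gave 3 Sham and 6 TAC libraries. The authors had removed 2 libraries with few reads (1 Sham 29P and 1 TAC Veh) and 1 further TAC Veh library because it clustered with Sham mice, so the spread within TAC Veh is that of the libraries that were kept.

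In the healthy adult heart most matricellular genes are quiet, and after injury or overload they are switched on, mainly in fibroblasts and to a lesser degree in cardiomyocytes, vessel wall cells and macrophages. The CCN proteins (CCN1, CCN2, CCN4 and CCN5) share a modular build and bind integrins and growth factors, and CCN5 lacks the C-terminal module that the others carry. Thrombospondin 1 activates latent TGF-β and inhibits angiogenesis, thrombospondin 4 belongs to the pentameric thrombospondins and is made in tendon and in stressed heart, and periostin, tenascin C, SPARC and osteopontin act on collagen assembly, cell adhesion and inflammation. Osteopontin and thrombospondin 1 contain an RGD sequence, and periostin, CCN1 and CCN2 also bind αv integrins, the receptor family to which the target of 29P belongs. In bulk tissue fewer cells of a type and less RNA per cell cannot be told apart, and this holds for every value below.

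The genes lie on separate chromosomes with few exceptions (GRCm38/mm10, GENCODE vM21). Postn spans chr3:54361109-54391037 on the plus strand and Ccn1 chr3:145646976-145649981 on the minus strand. Ccn2 spans chr10:24595442-24598683 (plus), Ccn4 chr15:66891320-66923201 (plus) and Ccn5 chr2:163820861-163833146 (plus). Thbs1 spans chr2:118111876-118127133 (plus), Thbs4 chr13:92751590-92794818 (minus) and Tnc chr4:63959785-64047015 (minus). Sparc spans chr11:55394500-55423183 (minus) and Spp1 chr5:104435118-104441050 (plus). Ccn2 overlaps the opposite-strand gene Gm15270, which was listed at 0.384 to 1.64 CPM, and Thbs1 overlaps the opposite-strand gene Gm29233, which was listed at no more than 0.427 CPM. Tnc overlaps the opposite-strand gene 8030451A03Rik and Spp1 the same-strand gene Gm42793, and neither of these was analysed here. Whether reads were counted by strand is not given in the sources used here, so reads of such pairs cannot be told apart.

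Promoter windows of 250 bases before a transcription start were found in RefSeq (GRCm38.p6) for 6 of the 10 genes: Postn, Ccn1, Tnc, Spp1, Sparc and Thbs4. Ccn2, Ccn4, Ccn5 and Thbs1 are named only. The 3 windows below belong to the genes with the highest and the lowest change after TAC (Thbs4 and Ccn1) and to Postn, and they end at the base before the start. Postn is chr3:54360857-54361106 (plus), Ccn1 is chr3:145649986-145650235 (minus) and Thbs4 is chr13:92794819-92795068 (minus), each written in its gene's own direction, with capitals for TATAAA, for GGAATG (the core bound by TEAD factors) and for GGGCGG (the GC box), on either strand.
Postn: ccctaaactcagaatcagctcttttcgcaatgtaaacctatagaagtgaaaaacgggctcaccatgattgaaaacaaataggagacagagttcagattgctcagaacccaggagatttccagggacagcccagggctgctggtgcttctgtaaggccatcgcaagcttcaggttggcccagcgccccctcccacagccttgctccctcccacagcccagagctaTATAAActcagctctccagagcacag
Ccn1: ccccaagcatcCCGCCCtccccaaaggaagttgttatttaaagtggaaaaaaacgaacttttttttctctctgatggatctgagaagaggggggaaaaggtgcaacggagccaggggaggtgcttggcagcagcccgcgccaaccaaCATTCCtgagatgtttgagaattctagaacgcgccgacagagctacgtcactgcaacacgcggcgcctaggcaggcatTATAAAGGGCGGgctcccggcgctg
Thbs4: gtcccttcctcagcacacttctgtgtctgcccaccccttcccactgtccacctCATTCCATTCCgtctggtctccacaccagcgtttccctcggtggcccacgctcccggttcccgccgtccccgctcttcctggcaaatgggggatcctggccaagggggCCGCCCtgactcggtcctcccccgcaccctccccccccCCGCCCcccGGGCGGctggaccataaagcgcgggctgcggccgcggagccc

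The Postn window held TATAAA from 26 to 21 bases before the start and the Ccn1 window held it from 25 to 20, while the Thbs4 window did not. GGAATG stood once in the Ccn1 window and in 2 overlapping copies in the Thbs4 window, all on the opposite strand, and GGGCGG stood 2 times in the Ccn1 window and 3 times in the Thbs4 window. Of 32851 RefSeq promoter windows of the same length, 12.4% held TATAAA, 12.6% held GGAATG and 32.7% held GGGCGG on either strand. The 3 windows differed in base composition, with a GC content of 52.0% for Postn, 54.8% for Ccn1 and 70.8% for Thbs4. These matches are descriptions of the letters and not of binding.

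Before the comparisons, 3 libraries must be set apart. TAC 29P S18, Sham Veh S19 and Sham Veh S20 carried atrial transcripts, with a summed CPM of the atrial genes Myl7, Myl4 and Sln of 1015 to 2543 against 0.353 to 5.75 in the other 14 libraries. They also form the last run of animal numbers, so the atrial tissue and that run cannot be told apart. Against the other 3 Sham Veh libraries, S19 and S20 had higher CPM of 7 of the 10 genes, beyond the range of those 3, as 14.8% of all genes had: Spp1 was 15.6-fold higher, Thbs1 5.20-fold, Ccn2 4.69-fold, Thbs4 2.66-fold, Ccn4 2.65-fold, Tnc 2.16-fold and Postn 1.46-fold. Ccn1 was 2.13-fold lower in them without overlap, as 11.4% of all genes were, and Ccn5 and Sparc overlapped. The Spp1 ratio rests on values of 0.0842 to 0.475 CPM in S5, S6 and S13, near the floor. Each comparison of the 10 genes is therefore given with all 17 libraries and again without these 3. Depth, estimated from the step between low values, was 14.2 to 23.8 M reads (median 20.4 M). The values of all genes are relative to library totals, and the median gene rose by 0.35 on the log2 scale after TAC in Veh mice and by 0.37 in 29P mice; with trimmed mean (TMM) factors in place of totals these medians were 0.01 and 0.02. The balance of called genes moved with it, from 3648 higher and 310 lower to 626 higher and 935 lower in Veh mice, and from 5097 higher and 181 lower to 929 higher and 804 lower in 29P mice.

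TAC raised most of the matricellular genes in Veh mice. Thbs4 rose 21.0-fold, Postn 10.8-fold, Ccn5 5.43-fold, Tnc 5.38-fold, Ccn2 4.16-fold, Sparc 2.85-fold and Ccn1 2.10-fold. These 7 genes of 10 passed the test (limma on log2 CPM, Benjamini-Hochberg adjusted p of 0.05 or less over all genes tested), where 22.5% of all genes tested passed in that direction. Ccn4 (log2 fold change 1.32, adjusted p = 0.0720), Thbs1 (1.92, adjusted p = 0.0635) and Spp1 (2.37, adjusted p = 0.166) did not pass. The median log2 fold change of the 10 was 2.22. In 5 of the 10 genes every TAC Veh library lay above every Sham Veh library, against 27.6% of all genes. Beyond the median gene, Thbs4 was 16.6-fold higher, Postn 8.47-fold and Ccn1 1.65-fold. Without S19 and S20 (and S18, which is in neither group) 9 of the 10 passed, with 13.8% of all genes as the background, and all 10 were free of overlap, with 37.7% as the background: Ccn4, Thbs1 and Spp1 now passed, and Ccn1 did not (0.64, adjusted p = 0.117). With TMM factors Postn, Ccn5, Thbs4, Tnc and Sparc passed, 5 of 10 against 3.86% of all genes, and without the 3 libraries 8 of 10 passed against 3.16%.

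**Figure D1:**
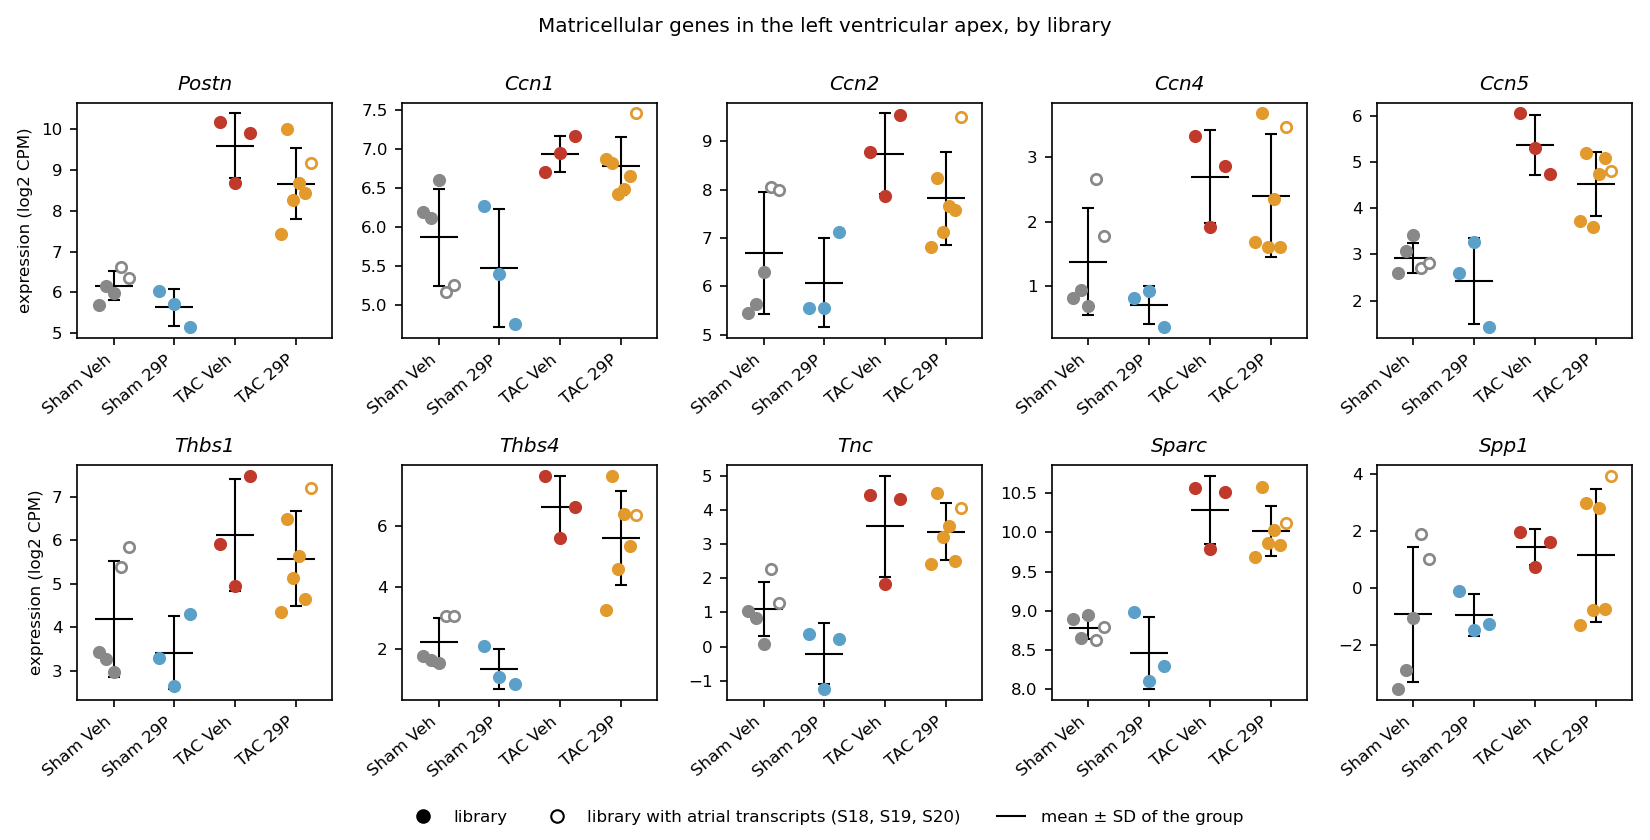
Expression of the 10 matricellular genes in log2 CPM (vertical axis, a separate scale in each panel) in the 4 groups. Each point is 1 library (1 mouse), open points are the 3 libraries with atrial transcripts, and the bar and whiskers are the mean ± SD of the group. The 3 TAC Veh libraries lie above all 5 Sham Veh libraries for Postn, Ccn1, Ccn5, Thbs4 and Sparc.

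Among the CCN genes, Ccn5 (an inhibitor of several actions of CCN2) had the highest fold change in Veh mice when all libraries were used, and Ccn2 had it without the atrial libraries. The CPM of Ccn5 was 6.06, 8.41, 10.7, 6.57 and 7.04 in Sham Veh libraries S5, S6, S13, S19 and S20. It was 66.3, 39.4 and 26.9 in TAC Veh S2, S12 and S16. No TAC Veh value came near the Sham Veh range, and the atrial libraries S19 and S20 sat inside that range. The log2 level rose from 2.93 ± 0.33 (SD, n = 5) to 5.37 ± 0.65 (n = 3), a log2 fold change of 2.44 (SE 0.41, 95% interval 1.57 to 3.31, adjusted p = 0.00181, limma), and of 2.33 (adjusted p = 0.0117) without the 3 atrial libraries. In 29P mice Ccn5 was 6.04, 9.59 and 2.70 CPM in Sham 29P S4, S14 and S15, and TAC 29P ran from 12.1 through a median of 27.5 to 36.8 CPM, with no overlap (log2 fold change 2.10, SE 0.40, adjusted p = 0.00319). Sham 29P S15 gave the lowest Ccn5 value of the series.

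Ccn2, which encodes connective tissue growth factor, a profibrotic protein induced by TGF-β and by YAP and TAZ, depended on the atrial libraries. It was 43.4, 49.7 and 78.2 CPM in Sham Veh S5, S6 and S13, but 266 and 253 CPM in S19 and S20. TAC Veh S2, S12 and S16 had 442, 235 and 750 CPM, so TAC Veh S12 lay below both atrial Sham Veh libraries. The log2 fold change was 2.06 (SE 0.66, adjusted p = 0.0319) with all libraries and 2.95 (adjusted p = 0.00477) without the 3. After TAC in 29P mice it was 1.74 (SE 0.64, adjusted p = 0.0448) with all libraries and 1.41 (adjusted p = 0.0236) without the 3. With S18 alone left out Ccn2 was not called in 29P mice. Sham 29P values were 46.7, 46.7 and 140 CPM and TAC 29P ran from 113 (S1) through a median of 196 to 724 CPM (S18). The groups overlapped, with Sham 29P S15 above TAC 29P S1 and S8.

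Ccn1, an immediate-early gene in many cells whose protein drives adhesion and senescence of fibroblasts, had the smallest change. Sham Veh libraries S5, S6 and S13 had 72.9, 69.0 and 96.6 CPM and S19 and S20 had 35.8 and 38.1 CPM. TAC Veh libraries had 104, 123 and 143 CPM. TAC Veh was above every Sham Veh library, by a narrow margin over S13, and S19 and S20 were the lowest Sham Veh libraries. The log2 fold change was 1.07 (SE 0.33, adjusted p = 0.0294) with them and 0.64 (SE 0.28, adjusted p = 0.117) without. Sham 29P values were 76.6, 41.9 and 27.0 CPM and TAC values ran from 85.4 through a median of 106 to 175 CPM, again without overlap (log2 fold change 1.31, SE 0.32, adjusted p = 0.00974). Immediate-early genes as a list (12 genes, 11 tested) had 2 called higher after TAC in Veh mice and 3 in 29P mice. Among all genes, 22.5% and 31.4% were called higher. With TMM factors 1 and 0 of the list were called, against 3.86% and 5.73% of all genes. Without the atrial libraries 1 and 3 were called, against 13.8% and 31.0%. The list summed to 155 to 405 CPM in Sham Veh and 229 to 636 CPM in TAC Veh. The part of the time between death and freezing was not tested.

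Ccn4, which encodes the WNT1-induced protein WISP1, was at much lower levels. It was 1.77, 1.92 and 1.62 CPM in Sham Veh S5, S6 and S13 and 6.34 and 3.45 CPM in S19 and S20. TAC Veh libraries had 10.03, 3.77 and 7.25 CPM, so S12 lay below Sham Veh S19. The log2 fold change was 1.32 (SE 0.53, adjusted p = 0.0720) with all libraries and 1.88 (SE 0.47, adjusted p = 0.0233) without the 3. Sham 29P libraries had 1.75, 1.90 and 1.29 CPM and TAC 29P values were 3.04 to 12.8 CPM (median 4.17), without overlap (log2 fold change 1.70, SE 0.51, adjusted p = 0.0216).

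Of the thrombospondins, Thbs4 had the highest fold change of the 10 genes. Sham Veh S5, S6 and S13 had 3.41, 3.13 and 2.90 CPM and S19 and S20 had 8.36 and 8.34 CPM. TAC Veh S2, S12 and S16 had 196, 48.6 and 98.2 CPM. Even the lowest TAC Veh library was several times above the highest Sham Veh library. The log2 level rose from 2.21 ± 0.78 (SD, n = 5) to 6.61 ± 1.005 (n = 3), a log2 fold change of 4.395 (SE 0.73, 95% interval 2.87 to 5.92, adjusted p = 0.00163), and of 4.96 (adjusted p = 0.00492) without the 3 libraries. In 29P mice Sham values were 4.24, 2.11 and 1.82 CPM and TAC values ran from 9.66 (S1) through a median of 61.2 to 199 CPM (S3), a 20.6-fold span inside 1 group (log2 fold change 4.25, SE 0.70, adjusted p = 0.00174).

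Thbs1 behaved like Ccn2 in the Sham libraries. It was 10.9, 9.76 and 7.94 CPM in Sham Veh S5, S6 and S13 and 42.1 and 57.2 CPM in S19 and S20. TAC Veh libraries had 60.01, 30.7 and 179 CPM, and S12 lay below both atrial Sham libraries. The log2 fold change was 1.92 (SE 0.74, adjusted p = 0.0635) with all libraries and 2.87 (SE 0.60, adjusted p = 0.0114) without the 3. With 29P, Sham values were 9.92, 6.27 and 19.8 CPM and TAC values ran from 20.4 through a median of 42.3 to 147 CPM, with no overlap but a gap of less than 1 CPM between Sham 29P S15 and TAC 29P S1 (log2 fold change 2.15, SE 0.71, adjusted p = 0.0317).

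Postn encodes periostin, a marker of activated fibroblasts that cross-links collagen. Its CPM was 51.8, 71.3, 63.5, 98.8 and 81.5 in Sham Veh S5, S6, S13, S19 and S20. TAC Veh S2, S12 and S16 had 1153, 411 and 970 CPM. Every TAC Veh library was clear of the Sham Veh range, and S12 was the lowest of them by a wide margin. The log2 level rose from 6.16 ± 0.35 (SD, n = 5) to 9.59 ± 0.80 (n = 3), a log2 fold change of 3.43 (SE 0.43, 95% interval 2.52 to 4.34, adjusted p = 0.000372), and of 3.64 (adjusted p = 0.00226) without the 3 libraries. In 29P mice Sham values were 66.0, 52.4 and 35.5 CPM and TAC values ran from 173 (S1) through a median of 377 to 1030 CPM (S3), without overlap (log2 fold change 3.03, SE 0.42, adjusted p = 0.000821). Postn and Ccn5 were genes that the study itself picked from these libraries, as reduced in TAC mice given 29P.

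Tnc encodes tenascin C, a hexameric protein of developing and injured tissue. Sham Veh libraries had 2.06, 1.79, 1.05, 4.78 and 2.40 CPM in the order S5, S6, S13, S19 and S20. TAC Veh S2, S12 and S16 had 21.6, 3.52 and 19.9 CPM, and S12 fell below Sham Veh S19. The log2 fold change was 2.43 (SE 0.61, adjusted p = 0.0128), and 2.87 (adjusted p = 0.0170) without the 3 libraries. In 29P mice Sham values were 1.29, 0.423 and 1.17 CPM and TAC values ran from 5.36 through a median of 10.4 to 22.4 CPM, without overlap, for a log2 fold change of 3.58 (SE 0.59, adjusted p = 0.00179).

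Sparc, whose protein binds collagen and albumin and guides collagen maturation, was the most even of the genes in Sham Veh, with a highest library 1.25 times the lowest. Sham Veh libraries had 395.5 to 492.65 CPM with a median of 445. TAC Veh S2, S12 and S16 had 1522, 886 and 1459 CPM. The atrial Sham libraries did not stand apart, and the groups were far from each other. The log2 level rose from 8.78 ± 0.14 (SD, n = 5) to 10.29 ± 0.43 (n = 3), a log2 fold change of 1.51 (SE 0.21, 95% interval 1.06 to 1.96, adjusted p = 0.000839) and of 1.46 (adjusted p = 0.00604) without the 3 libraries. In 29P mice Sham values were 504, 275.7 and 313 CPM and TAC values 822 to 1534 CPM (median 988), with a log2 fold change of 1.56 (SE 0.21, adjusted p = 0.000771).

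Spp1 encodes osteopontin, which macrophages and other cells secrete after injury. It was 0.0842, 0.134 and 0.475 CPM in Sham Veh S5, S6 and S13 and 3.75 and 1.998 CPM in S19 and S20. TAC Veh libraries had 3.94, 1.66 and 3.09 CPM. Only TAC Veh S2 exceeded every Sham Veh library, and the log2 fold change of 2.37 (SE 1.27, 95% interval -0.31 to 5.05, adjusted p = 0.166) did not pass. Without the 3 libraries it was 3.96 (SE 1.06, adjusted p = 0.0277), set against Sham Veh S5, S6 and S13 alone. At their estimated depths of 23.8, 22.3 and 21.0 M reads those Spp1 values stand for few reads each. The size of this change is therefore uncertain. In TAC 29P the libraries fell apart into 0.402, 0.582 and 0.590 CPM in S1, S8 and S11 and 7.87, 6.96 and 15.5 CPM in S3, S9 and S18, with Sham 29P at 0.922, 0.353 and 0.411 CPM, and the change after TAC did not pass in 29P mice (2.11, SE 1.23, adjusted p = 0.187).

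The change after TAC in 29P mice passed the test for 9 of 10 genes, all but Spp1, where 31.4% of all genes tested passed in that direction. In 8 of 10 genes every TAC 29P library lay above every Sham 29P library, against 25.0% of all genes, and the median log2 fold change was 2.11. Without the 3 atrial libraries, of which only S18 is in these groups, the count was again 9 (background 31.0%). In that fit 8 genes were again free of overlap (background 31.8%) and the median was 1.69. With S18 alone left out, Ccn2 and Thbs1 lost their calls. The log2 fold changes without the 3 libraries were 4.10 for Thbs4, 3.44 for Tnc, 2.93 for Postn, 2.04 for Ccn5, 1.83 for Thbs1 and 1.54 for Sparc. They were 1.49 for Ccn4, 1.41 for Ccn2, 1.18 for Ccn1 and 1.55 for Spp1, which again did not pass (adjusted p = 0.210, limma). With TMM factors the count fell to 5, against 5.73% of all genes, the same 5 genes that passed with TMM in Veh mice. Without the 3 libraries as well it was 6, against 7.35%. The exact two-sided permutation test over libraries gave 0.0179 for Postn, Ccn5, Thbs4 and Sparc in Veh mice, the smallest p that 3 against 5 libraries allow, and 0.0119 in 29P mice for these 4 and for Ccn1 and Tnc, the smallest that 6 against 3 allow. Without the 3 libraries the groups of 3 against 3 Veh mice cannot go below 0.1, which all 10 genes reached.

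**Figure D2:**
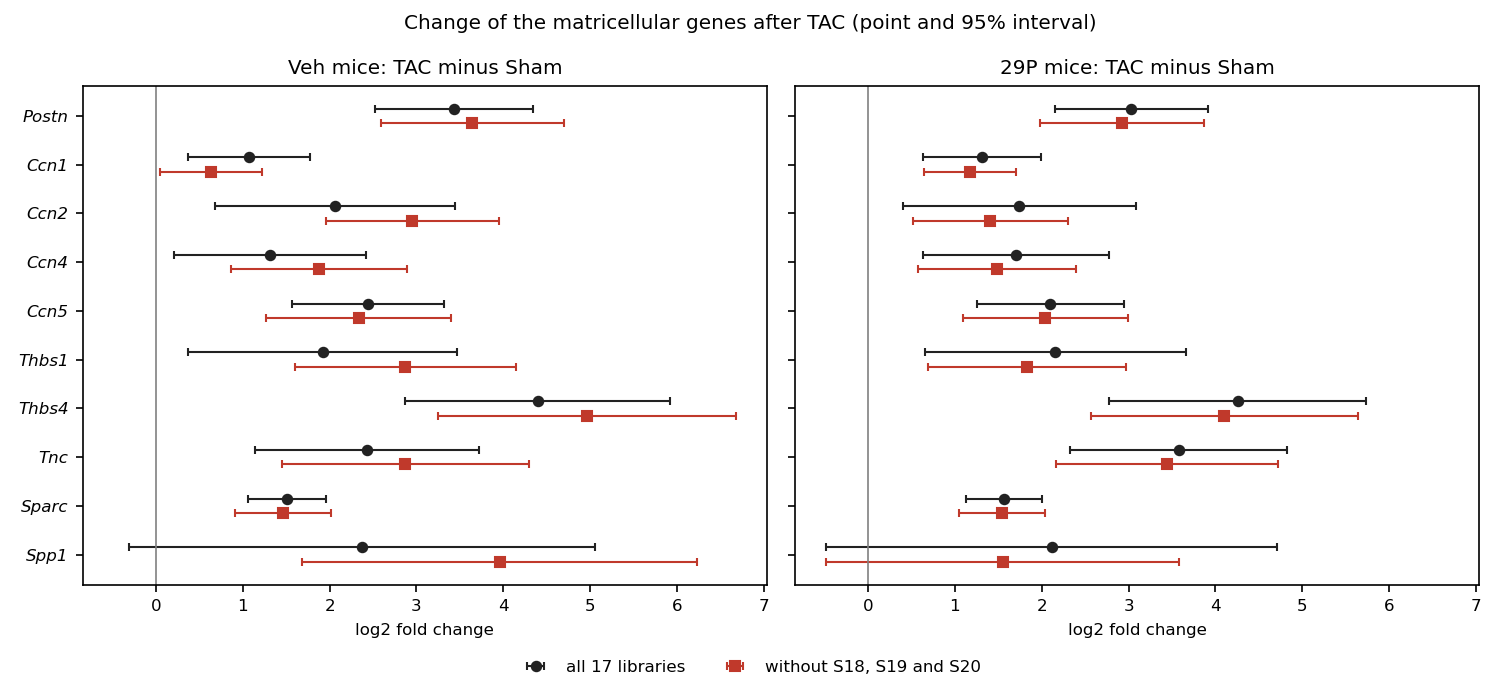
Log2 fold change (TAC minus Sham, horizontal axis) of the 10 genes in Veh mice (left) and 29P mice (right), with 95% intervals from the limma fit. Black circles use all 17 libraries and red squares leave out S18, S19 and S20. In Veh mice the intervals of Ccn2, Ccn4, Thbs1 and Spp1 move to the right without these libraries and that of Ccn1 to the left (1.07 to 0.64).

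The library numbers S1 to S20 follow animal numbers that form 4 runs, and no label says what a run is. Inside each run TAC libraries were compared with Sham libraries over both treatments, so treatment is mixed into these differences. S15 and S16 set a TAC Veh library against a Sham 29P library, and S18 to S20 set a TAC 29P library against 2 Sham Veh libraries, so in both of these runs surgery and treatment cannot be told apart. All 10 genes had a higher mean in TAC than in Sham in every run, with log2 differences of 0.47 to 3.97 in S1 to S11 (6 TAC and 3 Sham), 0.95 to 4.29 in S12 to S14 (1 TAC and 2 Sham), 2.22 to 5.75 in S15 and S16 (1 and 1) and 1.24 to 3.29 in S18 to S20 (1 TAC and 2 Sham, all with atrial transcripts). The first run was the only one large enough for a test, and there the exact two-sided permutation p was 0.05 or less for 9 of the 10 genes, all higher, where 44.0% of all genes were higher at that threshold, and 0.0714 for Spp1. Within that run Ccn1 differed by 0.47 (1.38-fold, exact permutation p = 0.0119) and Thbs4 by 3.97 (15.7-fold, exact permutation p = 0.0238). With the run as a covariate in the fit, 9 genes passed after TAC in Veh mice, against 19.2% of all genes, and 7 in 29P mice, against 4.19%.

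**Figure D3:**
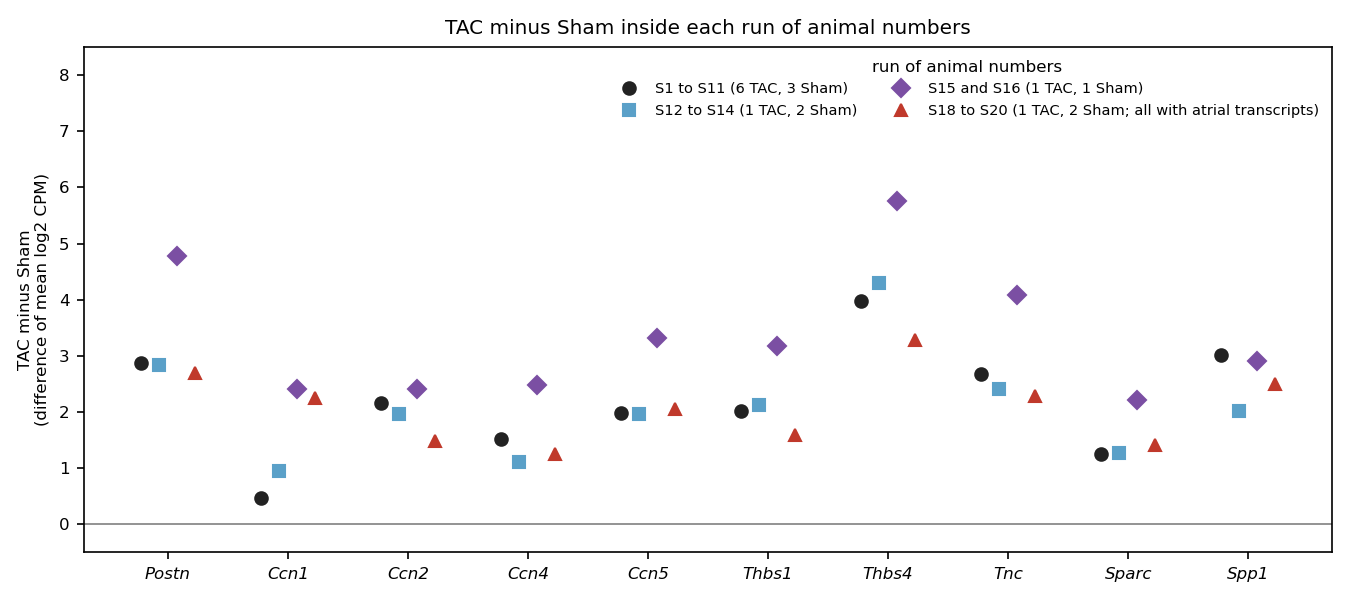
Difference of mean log2 CPM between TAC and Sham libraries (vertical axis) for each of the 10 genes inside the 4 runs of animal numbers. Each point is 1 run and carries no error because 3 of the runs hold a single TAC library. All points lie above 0, and S15 and S16 (1 library each) give the highest point for 9 of the 10 genes.

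Within TAC, none of the 10 genes passed the test between 29P and Veh, and neither did any of the 16218 genes tested (0%). All 10 group means of log2 CPM were lower with 29P, with differences from -1.01 to -0.15. Their median was -0.42, where the median of all genes was -0.02. A higher mean log2 CPM with 29P was seen for 44.5% of all genes. In CPM Spp1 went the other way, with a mean of 5.33 and a median of 3.78 in TAC 29P. In TAC Veh its mean was 2.90 and its median 3.09. Each comparison with TAC Veh shares the same 3 TAC Veh libraries, so the 10 values are not independent. None of the 10 was free of overlap between the groups, with all libraries or without S18, S19 and S20. Among all genes, 0.987% and 2.62% were lower without overlap. At an unadjusted p of 0.05, limma put 1 gene, Postn, past the threshold, where 0.931% of all genes passed in that direction.

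Postn was 1153, 411 and 970 CPM in TAC Veh and 173, 1030, 308, 409, 344 and 581 CPM in TAC 29P S1, S3, S8, S9, S11 and S18. In TAC 29P, 4 of the 6 libraries lay below the lowest TAC Veh library, S3 lay among the high TAC Veh libraries, and S9 and TAC Veh S12 were nearly equal. The log2 difference was -0.93 (SE 0.42, 95% interval -1.80 to -0.05, unadjusted p = 0.0401, adjusted p = 1, limma), a 1.90-fold lower mean, and the exact permutation p was 0.179. Ccn5 had a log2 difference of -0.84 (95% interval -1.68 to 0.01, unadjusted p = 0.0513, adjusted p = 1 in limma, exact permutation p = 0.131), with 3 of 6 TAC 29P libraries below every TAC Veh library.

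Ccn2 differed by -0.92 (95% interval -2.26 to 0.42). In the fit without the 3 atrial libraries it differed by -1.26 (95% interval -2.15 to -0.37, unadjusted p = 0.00887, adjusted p = 1 in limma, exact permutation p = 0.0357). At that unadjusted threshold, 1.84% of all genes were lower without the 3 libraries, and Ccn2 and Postn were the members among them. TAC 29P S18 had 724 CPM of Ccn2 and the next TAC 29P library, S3, had 301 CPM. Thbs4 had the widest difference, -1.01, with a 95% interval of -2.49 to 0.46 (exact permutation p = 0.345). For Thbs1 the interval was -2.03 to 0.97 and for Spp1 -2.90 to 2.295. For Ccn1 (-0.83 to 0.53), Ccn4 (-1.37 to 0.77), Tnc (-1.41 to 1.09) and Sparc (-0.71 to 0.17) the intervals contained 0 as well.

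**Figure D4:**
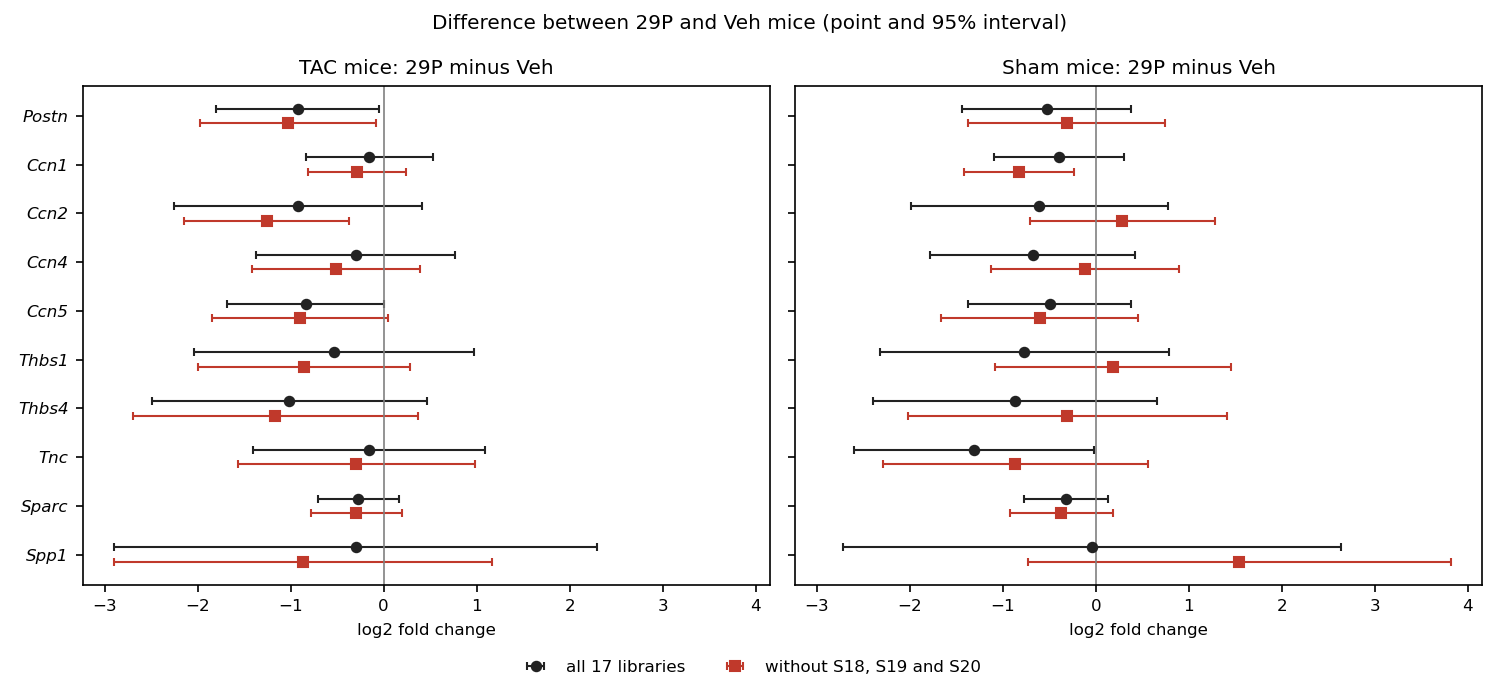
Log2 fold change between 29P and Veh mice (horizontal axis) within TAC (left) and within Sham (right), with 95% intervals from the limma fit. Black circles use all 17 libraries and red squares leave out S18, S19 and S20. All 10 points lie below 0 within TAC, and within Sham those of Ccn2, Thbs1 and Spp1 move above 0 without the 3 libraries.

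The order of the TAC libraries showed how much single mice decided these means. Over the 9 TAC libraries, TAC 29P S3 was among the top 3 for 8 of the 10 genes and the highest for 4, and TAC Veh S2 and S16 were each among the top 3 for 7. At the other end, TAC 29P S1 and S11 were each among the bottom 3 for 9 genes and S8 for 7. TAC Veh S12 was among the bottom 3 for 3 genes and TAC 29P S18 among the top 3 for 5. The TAC 29P group thus held a library high in most matricellular genes and 3 libraries low in most of them. No TAC Veh library that was kept was low in most. The authors had removed a TAC Veh library because it clustered with Sham mice, so a low TAC Veh library could have been lost by that choice. The 3 TAC Veh libraries came from 3 different runs of animal numbers, and 5 of the 6 TAC 29P libraries from the first run, so no run held more than 1 TAC Veh library and a within-run comparison of the treatments had too few samples. With the run as a covariate Postn differed by -1.29 (adjusted p = 1, limma) and none of the 10 passed.

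**Figure D5:**
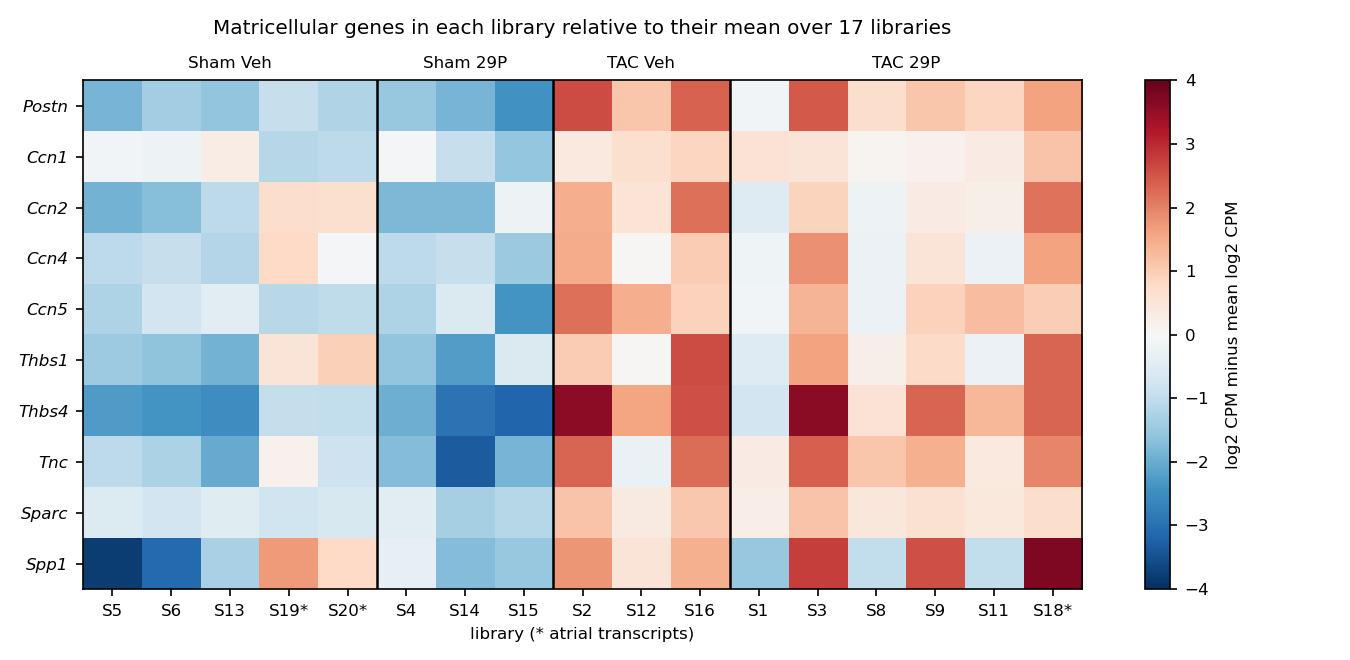
Log2 CPM of each gene (rows) in each library (columns) minus the gene's mean over the 17 libraries, in colour from blue (below) to red (above), with black lines between the 4 groups and asterisks on the libraries with atrial transcripts. TAC libraries S2, S16, S3 and S18 are red in every row, S1 and S8 are pale or blue in several, and S19 and S20 are red for Ccn2, Thbs1 and Spp1 although they are Sham.

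Red blood cell genes (Hba-a1, Hba-a2, Hbb-bs, Hbb-bt and Alas2) summed to 3082 to 4992 CPM in TAC Veh and 1036 to 4151 CPM in TAC 29P. The 29P mean was lower for all 5, each past an unadjusted threshold of 0.05 in limma and none after adjustment. Of all genes, 0.931% were lower at that unadjusted threshold. After TAC all 5 were called higher in Veh mice and none in 29P mice with all libraries and totals. With TMM factors, or without the atrial libraries, none was called in either. The part of blood in the matricellular values was not tested. Platelets hold thrombospondin 1 in their granules. Platelet genes summed to 9.84 to 33.5 CPM in Sham libraries and 15.5 to 66.8 CPM in TAC libraries. Of 5 tested, none was called after TAC in Veh mice and 2 were in 29P mice (0 with TMM factors). The shares of all genes called higher in Veh and 29P mice were 22.5% and 31.4% with totals and 3.86% and 5.73% with TMM factors. Without the atrial libraries they were 13.8% and 31.0%.

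Within Sham, 29P changed none of the 10 genes at the adjusted threshold, where 0.00617% of all genes passed as lower and none as higher. All 10 means were lower in Sham 29P, with a median log2 difference of -0.57, where the median of all genes was -0.06. A higher mean in Sham 29P was seen for 40.9% of all genes, and the rest were not higher. Tnc had the largest difference, -1.31 (95% interval -2.60 to -0.02, unadjusted p = 0.0474, adjusted p = 0.666, limma), where 5.89% of all genes were lower at that unadjusted threshold, and its exact permutation p was 0.0893. Without the atrial libraries Ccn2, Thbs1 and Spp1 had higher means in Sham 29P (log2 differences of 0.29, 0.18 and 1.54), Tnc was at -0.86 (unadjusted p = 0.216), and only Ccn1 was past an unadjusted p of 0.05, at -0.83 (unadjusted p = 0.00924, background 2.79%).

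The difference between the TAC changes of 29P and Veh mice was tested as an interaction, and none of the 10 genes passed, with estimates from -0.40 (Postn) to 1.15 (Tnc) and adjusted p = 0.998 for each in limma, where 0.00617% of all genes passed as higher. None of the 10 passed an unadjusted p of 0.05 with all libraries, where 1.98% of all genes did as higher and 0.863% as lower. Without the 3 libraries Ccn2 had an interaction of -1.54 (95% interval -2.88 to -0.21, unadjusted p = 0.0264, adjusted p = 0.962, limma), where 1.89% of all genes passed in that direction and 1.8% in the other. A larger TAC change in one treatment than in the other was thus not shown for any of them.

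Per kilobase of exon, the levels were ordered alike before and after TAC at the top only. Sparc was first in all 4 groups, with a median of 117 CPM per kb in Sham Veh, 82.7 in Sham 29P, 385 in TAC Veh and 261 in TAC 29P. In Sham Veh it was followed by Ccn1 (34.2 CPM per kb), Ccn2 (27.3), Postn (8.20), Ccn5 (3.66), Thbs1 (1.79), Thbs4 (1.04), Ccn4 (0.346), Spp1 (0.288) and Tnc (0.265). Of these steps, those from Sparc to Ccn1, from Ccn2 to Postn and from Postn to Ccn5 were free of overlap between the libraries, and each other gene overlapped the one above it. In TAC Veh the order was Sparc, Ccn2 (154), Postn (111), Ccn1 (60.9), Thbs4 (29.9), Ccn5 (20.5), Thbs1 (9.88), Tnc (2.57), Spp1 (1.88) and Ccn4 (1.303). There only the step from Thbs1 to Tnc was free of overlap. Thbs4 thus stood below Thbs1 and Ccn5 in Sham Veh and above both in TAC Veh, and Postn stood below Ccn1 in Sham Veh and above it in TAC Veh, in medians whose ranges overlapped in TAC Veh.

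The genes whose pattern over the 17 libraries was most like each member were found among 14054 genes by the root mean square difference of centred log2 CPM, as a description. Ccn2 and Thbs1 were each other's nearest gene (0.43). Postn lay nearest to Pamr1 (0.42), Col8a1 and Cilp (both 0.45), and Thbs4 to the matrix genes Ltbp2 (0.42), Col12a1 and Col8a2 (both 0.44). Sparc had the closest neighbours, Adcy7 (0.11), Adamts2 (0.14) and Col5a1 (0.16), and Tnc had Timp1 (0.48), Gdf15 (0.57) and Dio2 (0.58). Ccn4 lay nearest to Nupr1 (0.34), Ccn5 to Fibin and Itgbl1 (both 0.47) and Ccn1 to Sting1 (0.32). Spp1 had no close neighbour, the nearest being Angptl7 at 1.04. All points share the same libraries, the 3 atrial ones included.

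Of 20 other matricellular genes, 17 were in the table and 13 passed the filter, and 7 were called higher after TAC in Veh mice and 6 in 29P mice, with none lower and median log2 fold changes of 0.68 in both. With TMM factors 3 and 4 were called, and without the 3 atrial libraries 6 and 6. The shares of all genes called higher in Veh and 29P mice were 22.5% and 31.4% with totals. They were 3.86% and 5.73% with TMM factors and 13.8% and 31.0% without the atrial libraries. Fstl1, which encodes follistatin-like 1, rose from 7.19 ± 0.19 (SD, n = 5) to 8.96 ± 0.55 (n = 3) log2 CPM in Veh mice (log2 fold change 1.76, adjusted p = 0.000818). Comp, the closest relative of Thbs4 on the list, had a log2 fold change of 3.57 (adjusted p = 0.0367), Thbs3 of 1.32 (adjusted p = 0.00758) and Tnxb, a tenascin, of 1.01 (adjusted p = 0.0166). With TMM factors Fstl1 (1.43, adjusted p = 0.00148) and Thbs3 (0.98, adjusted p = 0.0260) passed, and Comp (3.24, adjusted p = 0.0798) and Tnxb (0.67, adjusted p = 0.0787) did not. Without the atrial libraries Tnxb was at 0.98 (adjusted p = 0.0501).

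Receptors of matricellular proteins were measured by 18 genes, all tested, with median log2 fold changes of 0.66 and 0.91 after TAC in Veh and 29P mice. Of these, 11 were called higher in Veh mice and 11 in 29P mice, against 22.5% and 31.4% of all genes. With TMM factors 3 receptors were called higher and 1 lower in Veh mice and 4 higher in 29P mice. The shares of all genes called higher were then 3.86% and 5.73%, and without the atrial libraries 13.8% and 31.0%. Called lower in Veh mice were 935 of 16218 genes with TMM factors and 158 of 16004 without the atrial libraries. Without the atrial libraries 9 receptors were called higher and 1 lower in Veh mice and 9 higher in 29P mice. The gene called lower was Cd36, a thrombospondin receptor and fatty acid transporter, which was at -0.24 (adjusted p = 0.165) in the fit with all libraries and totals, at -0.58 (adjusted p = 0.0229) with TMM factors and at -0.37 (adjusted p = 0.0482) without the atrial libraries; it was named after its values were seen. Itga9, which encodes the integrin α9 that binds tenascin C and osteopontin, had a log2 fold change of 1.36 (adjusted p = 0.000481) in Veh mice, and Lrp1, an endocytic receptor for thrombospondins, of 1.53 (adjusted p = 0.00308). Itgb5 (1.06, adjusted p = 0.00539) and the syndecan Sdc1 (1.10, adjusted p = 0.0235) also passed. With TMM factors Itga9 (1.02, adjusted p = 0.000959), Lrp1 (1.19, adjusted p = 0.00356) and Itgb5 (0.72, adjusted p = 0.0104) passed, and Sdc1 (0.76, adjusted p = 0.0941) did not. The target of 29P is built from Itgav and Itgb3. Itgav had a log2 fold change of 0.57 in Veh mice (adjusted p = 0.0261) and of 0.39 in 29P mice (adjusted p = 0.0798), and with TMM factors of 0.23 (adjusted p = 0.408) and 0.03 (adjusted p = 0.914). Itgb3 had 0.74 in Veh mice (adjusted p = 0.250) and 1.35 in 29P mice (adjusted p = 0.0371), and with TMM factors 0.40 (adjusted p = 0.602) and 0.99 (adjusted p = 0.138). These 2 genes were named for their link to 29P and not by size of change.

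Of 20 upstream regulators of matricellular genes, 13 were called higher after TAC in Veh mice and 11 in 29P mice. Among all genes, 22.5% and 31.4% were. The regulators had median log2 fold changes of 0.63 and 0.47. With TMM factors 3 regulators were called in each treatment, against 3.86% and 5.73% of all genes. Without the atrial libraries 11 were called in each, against 13.8% and 31.0%. Tgfb2 (1.52, adjusted p = 0.00158), Tgfb3 (1.39, adjusted p = 0.0147) and Tgfb1 (1.02, adjusted p = 0.0310), the ligands of TGF-β signalling, rose in Veh mice, as did Mrtfa, a coactivator of serum response factor (1.18, adjusted p = 0.0163). With TMM factors Tgfb2 (1.18, adjusted p = 0.00538) and Tgfb3 (1.06, adjusted p = 0.0455) passed, and Mrtfa (0.84, adjusted p = 0.0512) and Tgfb1 (0.68, adjusted p = 0.112) did not. Without the atrial libraries Tgfb1 was at 1.09 (adjusted p = 0.0617). In the comparison of 29P with Veh within TAC, none of the genes of these 3 lists was called by limma, and 1, Sparcl1 (-0.23, unadjusted p = 0.0339), named after its values were seen, was past an unadjusted p of 0.05.

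Marker genes of cell types were called after TAC as well, in numbers that depended on the scaling. The shares of all genes called higher were 22.5% in Veh mice and 31.4% in 29P mice with library totals, and 3.86% and 5.73% with TMM factors. Without the atrial libraries they were 13.8% and 31.0%. Fibroblast genes (10) had 7 called higher in Veh mice and 9 in 29P mice, against 4 and 5 with TMM factors and 8 and 9 without the atrial libraries. They summed to 1042 to 1600 CPM in Sham Veh, 871 to 1173 in Sham 29P, 2165 to 3305 in TAC Veh and 1496 to 3359 in TAC 29P. Activated fibroblast genes (10) had 9 called higher in each, against 8 and 5 with TMM factors and 8 and 8 without the atrial libraries, with sums of 166 to 304, 124 to 231, 465.4 to 1014 and 316 to 1052 CPM in the same order. Macrophage genes (12) had 10 and 11 called higher, against 2 and 8 with TMM factors and 7 and 11 without the atrial libraries, with sums of 340 to 406, 226 to 451, 520 to 819 and 496 to 679 CPM. No gene of these 3 lists was at 0 in any library. Their part in the matricellular values was not tested.

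Endothelial genes (8) had 2 called higher in Veh mice and 5 in 29P mice, against 0 and 0 with TMM factors and 0 and 6 without the atrial libraries, with sums of 718 to 1101 CPM in Sham Veh and 1106 to 1399 CPM in TAC Veh. Smooth muscle and pericyte genes (8) had 3 called higher in each, against 2 in Veh mice and 1 higher and 1 lower in 29P mice with TMM factors and 2 and 5 without the atrial libraries, with sums of 1039 to 1354 CPM in Sham Veh and 1372 to 1731 CPM in TAC Veh. Cardiomyocyte genes (8), which define the labelled tissue, summed to 35314 to 51973 CPM over all libraries. Of these, 1 was called higher and 1 lower in Veh mice and 2 higher and 1 lower in 29P mice with library totals, and with TMM factors none was higher and 4 were lower in Veh mice and 3 in 29P mice. Without the atrial libraries 0 were called in Veh mice and 1 higher and 1 lower in 29P mice. Of all 16218 genes, 310 were called lower in Veh mice and 181 in 29P mice with library totals. With TMM factors 935 and 804 were, and without the atrial libraries 158 and 228 of 16004. Cardiomyocyte stress genes (6) had 5 and 6 called higher with either scaling and 6 and 6 without the atrial libraries, with sums of 2796 to 7914 CPM in Sham Veh and 16290 to 27828 CPM in TAC Veh. Valve and tendon genes (6, of which Thbs4 and Comp are 2) had 4 called higher in each, against 1 and 4 with TMM factors and 3 and 4 without the atrial libraries, and summed to 4.92 to 35.7 CPM in Sham Veh and 87.7 to 267 CPM in TAC Veh, while Tnmd of that list was at 0 in 6 libraries. Atrial genes (7, 6 tested) had none called in either with either scaling, and without the atrial libraries 1 of 4 tested was called higher in each. Epicardial genes (6, 3 tested) had none called, and summed to 3.91 to 13.9 CPM in all libraries, with Msln, Upk3b, Upk1b, Krt19 and Krt8 at 0 in 3 to 12 libraries.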

How the data were processed

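The authors extracted RNA from snap-frozen left ventricular apex, made polyA libraries (NEBNext Ultra II), used STAR 2.3.7 (Partek Flow) and the mm10 build for alignment and deposited CPM values, scaled to each library total, with 0.0001 added. The read counter and its strand setting are not given in the sources used here. No read totals were used: 76.3 to 79.4% of low values were whole multiples of a step (tolerance 0.02), too few to recover counts, and the step gave the estimated depths. The study called genes with a count model at an unadjusted p of 0.05 or less. Here limma 3.58.1 (R 4.3.3; lmFit, contrasts.fit, eBayes with trend) was fitted to log2 of the deposited CPM for 16218 genes with CPM of at least 0.5 in at least 3 libraries (16004 without S18, S19 and S20), with 1 mean per group over all 17 libraries. Genes were called at a Benjamini-Hochberg adjusted p of 0.05 or less over all genes tested. For single genes an exact permutation test over libraries (two-sided) was added (scipy 1.17.1). The p-values measure the spread between libraries of 1 mouse each.

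S18, S19 and S20 were set apart because their summed Myl7, Myl4 and Sln exceeded 5 times the median library. All 10 members were named; of the other matricellular, receptor and upstream regulator lists, up to 4 genes with the largest change after TAC in Veh mice among those called with a mean CPM of at least 1. Marker lists (fibroblast, activated fibroblast, macrophage, endothelial, smooth muscle and pericyte, cardiomyocyte, cardiomyocyte stress, atrial, epicardial, valve and tendon, platelet, red blood cell, immediate-early) were summed. Members and lists were chosen with earlier results of these data known. The fit was tested on simulated data. Alternatives covered scaling (TMM, trims of 30% and 5%; median of ratios; totals without 16 mitochondrial genes), constants of 0.1 and 1, filters, threshold, moderation, groups in the fit, run of animal numbers, and each library left out.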

Additional observations from a re-analysis of the deposited data

How the results depend on the processing

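After TAC all 10 genes had higher means under every alternative run, in both treatments. In 29P mice the count of genes called was 5 with TMM and 5 with median-of-ratios factors. Of all 16218 genes, 929 and 935 were then called higher in 29P mice, against 5097 with totals. In both treatments the count of members called was within 1.5 times under the other alternatives that kept every library. Of all genes, 1588 in Veh mice and 2028 in 29P mice were called higher with totals without mitochondrial genes. With the run covariate 3110 and 679 were. Leaving out 1 library gave 4 to 7 in Veh mice, with 4 without TAC Veh S2 (2.68% of all genes called higher) or S16 (12.9%), and 5 to 9 in 29P mice, with 5 without Sham 29P S14 (6.45%); the cause was not tested. In Veh mice Ccn1 lost its call without S19, S20, S2, S12 or S16, Ccn2 without S5, S6, S13, S2 or S16 and Tnc without S2 or S16, and Ccn4 gained one without S19 and Thbs1 without S20 or S12. In 29P mice Ccn2 was called in 9 of 17 such fits (lost without S13, S4, S14, S2, S3, S9, S11 or S18), Thbs1 lost its call without S4, S14, S3 or S18, and Ccn1 and Ccn4 without S14 or S15. At an unadjusted p of 0.05, 1 gene passed for 29P within TAC and 1 within Sham, both lower, as 0.931% and 5.89% of all genes did. The unadjusted threshold and TMM factors were added to the alternative without S18, S19 and S20 after seeing the data. At that threshold 2 then passed within TAC, 1 within Sham and 1 for the interaction. All were in the lower direction, where 1.84%, 2.79% and 1.89% of all genes passed. Leaving out 1 library gave 0 to 0 for each of these 3 comparisons.

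Directions changed for differences between 29P and Veh mice and for interactions, none of which had passed the test. Within TAC Spp1 was 0.0846 with 1 added to CPM. Within Sham Spp1 was 0.0012 with TMM, 0.013 with median-of-ratios factors, 0.0042 with totals without mitochondrial genes, 1.48 with the run covariate, 1.54 without the 3 libraries and 1.59 with TMM as well. Ccn2 was 0.29 and 0.34 and Thbs1 0.18 and 0.23 in the last 2 settings, and Ccn4 0.0082 with the run covariate. For the interaction Ccn4 was -0.79 with the run covariate, -0.39 without the 3 libraries and -0.42 with TMM as well, Thbs1 -0.34, -1.04 and -1.07, Sparc -0.18 with the run covariate, and Spp1 0.012 and 0.40 with 0.1 and 1 added. Leaving out 1 library gave interactions of -0.12 to 0.64 for Ccn1, -0.75 to 0.21 for Ccn2, -0.011 to 0.69 for Ccn4, -0.84 to 0.073 for Ccn5, -0.20 to 0.31 for Sparc, -0.97 to 0.40 for Spp1, -0.35 to 0.92 for Thbs1 and -0.65 to 0.36 for Thbs4. Within TAC it gave -0.69 to 0.015 for Ccn4, -0.86 to 0.19 for Spp1, -1.12 to 0.15 for Thbs1 and -1.01 to 0.30 for Tnc, and within Sham -0.91 to 0.0023 for Ccn5 and -0.70 to 0.67 for Spp1.

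No paired analysis was possible because the groups share no animal numbers. Depth limits Spp1 most, at 0.0842 CPM in its lowest library.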
